A study of Homo sapiens with 6 samples.

Results

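The subject is the insulin-like growth factor axis in K562: the receptor gene IGF1R, the ligand gene IGF1, the related receptors IGF2R and INSR, the binding proteins IGFBP2 and IGFBP4, the docking proteins IRS1 and IRS2, the adaptor SHC1 and the inhibitory adaptor GRB10. These 10 genes were listed by symbol and found by their Ensembl identifiers among the 58440 of the deposited count table, with IRAIN beside them as the over-expressed RNA. RNA was sequenced from K562, a human cell line established from chronic myeloid leukaemia, which bears the fusion gene BCR-ABL1. One group holds 3 libraries of K562 with IRAIN over-expressed, and the other holds 3 control libraries of K562, named wild type in the labels and vector in the table's columns. The vector, promoter and number of clones behind the over-expression are not stated in the labels.

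IGF1 and its relative IGF2 bind IGF1R, a receptor tyrosine kinase of the cell surface, while insulin binds the closely related INSR, and the chains of both receptors can join into hybrids. Activated receptors phosphorylate IRS1, IRS2 and SHC1, which pass the signal to the PI3K and RAS pathways, and GRB10 binds the activated receptors and restrains them. IGF2R carries no kinase: it takes IGF2 up for breakdown and sorts lysosomal enzymes. The binding proteins hold the ligands outside the cell, and IRAIN is a long noncoding RNA made from the strand opposite to IGF1R.

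Among the 10 genes, 5 rose with IRAIN over-expression, 2 fell, 2 did not pass the test and IGFBP2 had too few counts to be tested. IRS1 rose 5.44-fold and INSR 3.49-fold, IGF1 1.89-fold, IGF1R 1.62-fold and IRS2 1.27-fold. IGFBP4 fell to 0.553 of its control level and SHC1 to 0.861 of it. The test was edgeR's quasi-likelihood F-test over all 18380 genes with enough counts, and a gene was called at a Benjamini-Hochberg adjusted p under 0.05. By that rule 39.3% of all tested genes were called (20.3% higher, 18.9% lower). With an offset for gene length and GC content, 5 of the 9 genes were called higher and 4 lower. Beside that background, the 7 calls among 9 tested genes describe a list that was chosen with earlier results of these data known. The median log2 fold change was 0.34 over the 9 tested genes and 0.00 over all tested genes. Whether replicate libraries stem from separate cultures is not stated, and the p-values then cover no more than the spread between these libraries, which may be technical. In RNA from whole cultures, a change in the share of cells that express a gene and a change in the RNA of each cell cannot be told apart.

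**Figure D1:**
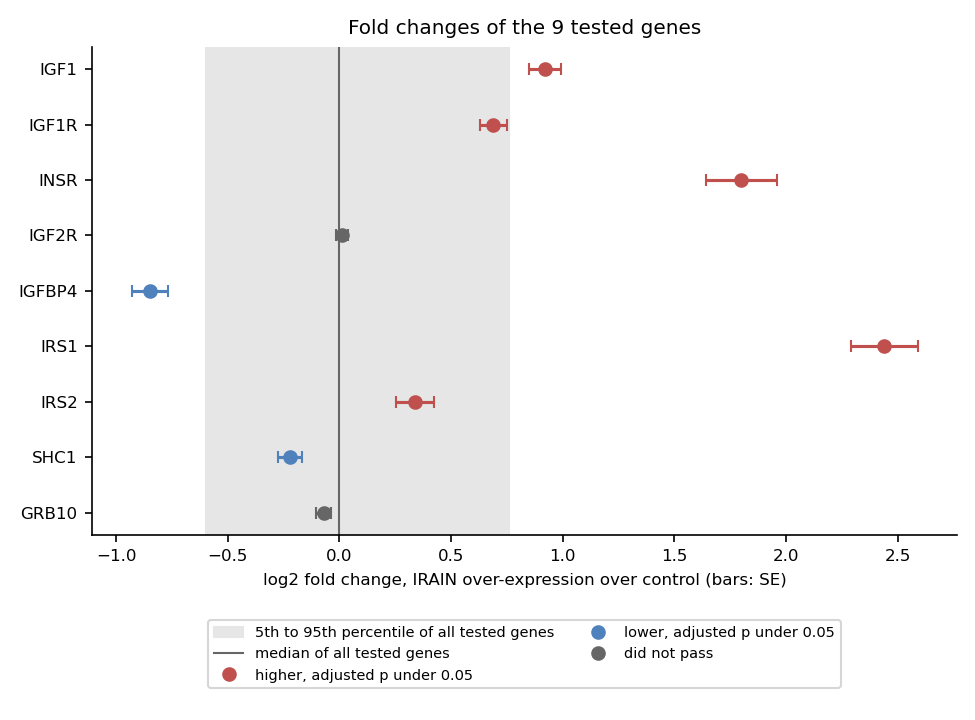
Log2 fold change of each tested gene, IRAIN over-expression over control, with its SE as bars. The grey band spans the 5th to 95th percentile of all tested genes (-0.60 to 0.76): IRS1, INSR and IGF1 lie above it, IGFBP4 below it, and the other 5 genes inside it.

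The libraries held 11558983 to 13303139 counts in genes. Erythroid genes that mark K562 summed to 708 to 747 CPM (counts per 1000000 of the library, scaled by the trimmed mean of M-values) in the over-expression libraries, against 646 to 664 CPM in the controls, with none of the 10 markers at 0. Of 5 T cell markers 4 stayed under 1 CPM, as did 4 of 5 B cell markers, in both groups. The epithelial list was at 632 to 673 CPM in the over-expression libraries, against 544 to 567 CPM in the controls, most of it the keratin KRT8, with CDH1 alone of 5 markers under 1 CPM. The fibroblast list was at 35.0 to 39.8 CPM in the over-expression libraries, against 40.4 to 41.4 CPM in the controls, with 3 of 5 markers under 1 CPM. Mitochondrial genes took 2.95% to 3.33% of the counts in the over-expression libraries, against 2.46% to 2.78% in the controls. The nuclear RNA MALAT1 took 2.57% to 2.62% in the over-expression libraries, against 1.94% to 1.99% in the controls. With these genes and the 10 most abundant genes left out of the scaling, the 7 calls among the 10 genes all kept their direction. The part of the other shifts in the results was not tested.

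IRAIN was counted 97, 94 and 106 times in the over-expression libraries, against 0, 0 and 1 in the controls. The groups lie far apart. As IRAIN is the introduced RNA and had enough counts to test through the over-expression libraries alone, no test is given for it. In the library that was also counted by strand, 74 of its 94 reads lay on its own strand. Reads from the introduced copy and from the locus cannot be told apart in these counts. Which reads count as IRAIN depends on the annotation. GENCODE release 29, on the GRCh38 build the authors aligned to, places IRAIN (ENSG00000259424.1) on the minus strand at chr15:98646951-98647371, where its exons span 334 bases and end 1167 bases before the start of IGF1R. RefSeq draws a longer IRAIN of 4925 bases, chr15:98645863-98650787, which begins inside the first intron of IGF1R and runs back over its first exon (chr15:98648539-98649675) and its promoter. Of that longer span, 2249 bases lie within IGF1R.

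The 250 bases before the RefSeq start are shown for IGF1R, because they lie inside the longer IRAIN, and for INSR and IRS1, because these genes rose most. They are RefSeq sequences on GRCh38.p14, written 5′ to 3′ on the gene's strand, and capitals mark GC boxes, the letters GGGCGG or CCGCCC, which are known to be bound by SP1.
IGF1R, chr15:98648289-98648538, plus strand: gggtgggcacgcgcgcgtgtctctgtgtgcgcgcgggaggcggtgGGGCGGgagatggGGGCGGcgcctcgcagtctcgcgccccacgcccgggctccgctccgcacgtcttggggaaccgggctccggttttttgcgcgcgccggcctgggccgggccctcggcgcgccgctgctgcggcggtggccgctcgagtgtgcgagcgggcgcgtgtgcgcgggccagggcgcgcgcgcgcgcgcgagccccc
INSR, chr19:7294415-7294664, minus strand: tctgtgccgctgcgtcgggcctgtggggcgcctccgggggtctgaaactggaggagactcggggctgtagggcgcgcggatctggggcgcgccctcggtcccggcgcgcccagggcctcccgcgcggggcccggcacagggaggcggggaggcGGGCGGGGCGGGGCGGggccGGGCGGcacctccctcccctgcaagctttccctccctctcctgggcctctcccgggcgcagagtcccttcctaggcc
IRS1, chr2:226799821-226800070, minus strand: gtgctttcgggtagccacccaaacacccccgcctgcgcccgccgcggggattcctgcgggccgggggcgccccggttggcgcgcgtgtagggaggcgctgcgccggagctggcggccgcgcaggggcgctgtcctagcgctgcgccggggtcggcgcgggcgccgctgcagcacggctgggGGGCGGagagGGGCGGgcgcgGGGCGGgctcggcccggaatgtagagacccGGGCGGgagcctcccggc
IGF1R holds 2 such boxes, INSR 4 and IRS1 4, with overlapping matches counted. GC content is 81.2% for IGF1R, 78.4% for INSR and 80.8% for IRS1, against a median of 58.0% over 35116 RefSeq windows of that length. Of those windows, 42.6% hold at least 1 GC box. All 10 genes matched the RefSeq table, 4 of them with more than 1 start, and 9 have a GC box before at least 1 start, whichever way the gene moved: IGF2R has 6, IRS2 5, GRB10 3 and IGFBP4 1. The exception is IGF1, whose windows have 39.6% and 44.0% GC and no box. This count is by gene and the 42.6% is by window, so they are not on the same scale. Some windows of GRB10, IGFBP2 and SHC1 hold no box. High GC content is not confined to genes that rose. It was 79.2% for IGF2R and 30.4% to 81.6% over the windows of GRB10, neither of which was called. Of the fallen genes, IGFBP4 had 71.6%, and the windows of SHC1 had 55.2% and 61.6%. The core of the FOXO motif, TGTTTAC on either strand, lies in 2.98% of all windows and, among the 10 genes, before 1 start of IGF1. These are matches of letters and not measured binding.

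IGF1, the ligand, was at 42.0, 40.3 and 46.3 CPM in the over-expression libraries, against 23.1, 21.6 and 23.3 CPM in the controls. Every over-expression library lay above every control. Groups that do not overlap, in either direction, were seen in 47.5% of all tested genes. The log2 fold change was 0.92 ± 0.071 (SE; adjusted p = 2.9e-17 by edgeR). These counts cover only a small part of the gene. The last exon of IGF1 (ENSG00000017427.16, chr12:102395874-102481744, minus strand) is 6693 bases long and lies wholly within HELLPAR, a long noncoding RNA annotated on the other strand, and the deposited counts ignore strand and, in STAR's layout, set reads that fall on both genes apart as ambiguous. That leaves 1429 of 8122 exon bases, or 17.6%. HELLPAR itself was not called, at a log2 fold change of 0.01 ± 0.03 (SE; adjusted p = 0.86 by edgeR).

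A second deposited table shows how much is lost. It holds 1 library counted with and without strand, whose values without strand are identical to the column of over-expression replicate 2 for all 58440 identifiers. There IGF1 had 514 counts with strand ignored and 2585 on its own strand, so the count used in the comparison is 19.9% of the own-strand count. Per kilobase of exon, the own-strand count gives 24.9 CPM over all exons, and the strand-ignored count gives 28.2 CPM over the exon bases that IGF1 shares with no other gene. The remaining ligand genes IGF2 and INS had 0 counts in all 6 libraries. With strand ignored, that is under the limit of 3 counts a library, for counting error only. Both also had 0 reads in the strand counts of over-expression replicate 2. Whether other annotated genes share their exons was not examined, and reads on shared exons would be set apart as ambiguous.

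**Figure D2:**
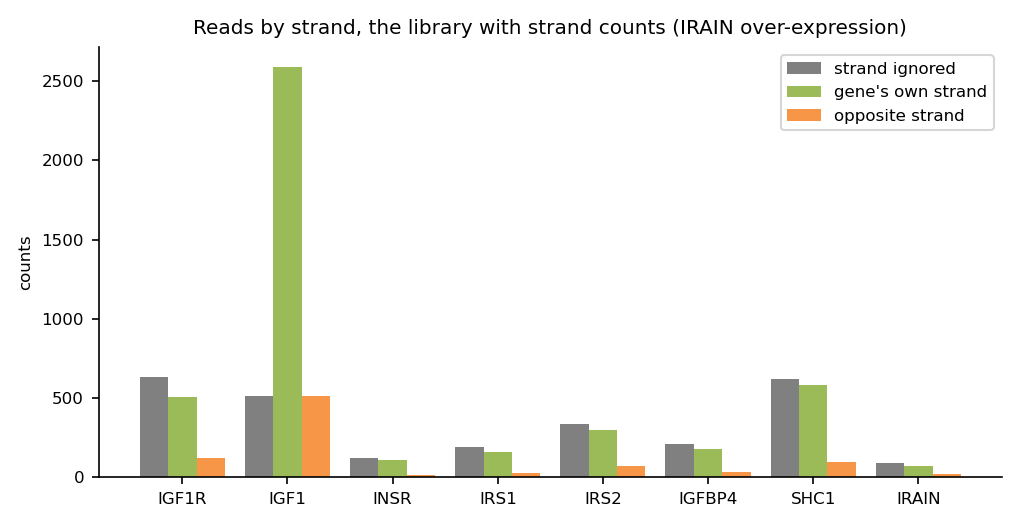
Counts of IGF1R, IGF1, INSR, IRS1, IRS2, IGFBP4, SHC1 and IRAIN in the over-expression library that was also counted by strand: strand ignored, on the gene's own strand and on the opposite strand. IGF1 alone has more reads on its own strand (2585) than with strand ignored (514).

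IGF1R (ENSG00000140443.13, chr15:98648539-98964530, plus strand) was at 48.8, 49.6 and 47.3 CPM in the over-expression libraries, against 30.1, 29.8 and 30.1 CPM in the controls. The groups do not overlap, and the spread within each is narrow. The coefficient of variation was 2.41% in the over-expression libraries, where counting alone gives 4.07%, and 0.565% in the controls, where it gives 5.23%. The log2 fold change was 0.69 ± 0.062 (SE; adjusted p = 1.1e-14 by edgeR), a size reached in either direction by 9.62% of all tested genes. Since the longer IRAIN runs over the first exon, the strand of the reads matters here. In the library with strand counts, 125 of the 633 IGF1R reads lay on the opposite strand, 19.7% (exact 95% interval 16.7% to 23.1%), where the whole library had 15.1%. Such a share is not particular to IGF1R. Beyond the 10 genes it was 19.5% in SOCS1, though 4.08% in GAB1. It was 20.1% in PIK3CA, where 1072 own-strand and 270 opposite reads stood against 1049 with strand ignored. Unlike in IGF1R, some PIK3CA reads were thus ambiguous without strand. The 508 reads on the strand of IGF1R alone come to 39.8 CPM, above the strand-ignored 29.8 to 30.1 CPM of the controls. Of the 4 other annotated genes that overlap IGF1R, none had more than 4 counts in any library: the intronic ENSG00000278022, the microRNA gene MIR4714, and the antisense genes ENSG00000259621 and SYNM-AS1.

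INSR, the insulin receptor (ENSG00000171105.13, chr19:7112255-7294034, minus strand), was at 10.3, 9.71 and 9.85 CPM in the over-expression libraries, against 2.91, 3.15 and 2.48 CPM in the controls. It was counted 118, 124 and 130 times against 35, 39 and 30 times, and the groups lie well apart. The log2 fold change was 1.80 ± 0.16 (SE; adjusted p = 5.2e-15 by edgeR), and 1.28% of all tested genes had one of at least that size. The 109 own-strand reads of the library with strand counts come to 8.54 CPM, also above the strand-ignored CPM of every control.

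IGF2R, the scavenger of IGF2 (ENSG00000197081.12, chr6:159969099-160113507, plus strand), was the most abundant of the 10 genes, at 604, 617 and 595 CPM in the over-expression libraries and 614, 598 and 596 CPM in the controls. The groups overlap, and at a log2 fold change of 0.01 ± 0.027 (SE) the gene was not called (edgeR adjusted p = 0.86). With an offset for gene length and GC content it was called lower, at -0.13 (edgeR adjusted p = 2.5e-05). Of the 4 receptor genes 3 were called higher and 0 lower, beside 39.3% called of all tested genes, with a median log2 fold change of 0.85. The third, INSRR, an orphan relative of the insulin receptor, was counted 15, 21 and 20 times in the over-expression libraries, against 6, 9 and 12 times in the controls. INSRR had enough counts to test through the over-expression libraries alone, so its call is no support for the list. The call was lost by DESeq2 (adjusted p = 0.099) and without any of 4 libraries: over-expression replicate 2 (0.079) or 3 (0.051), or the control numbered 1 (0.12) or 2 (0.057).

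**Figure D3:**
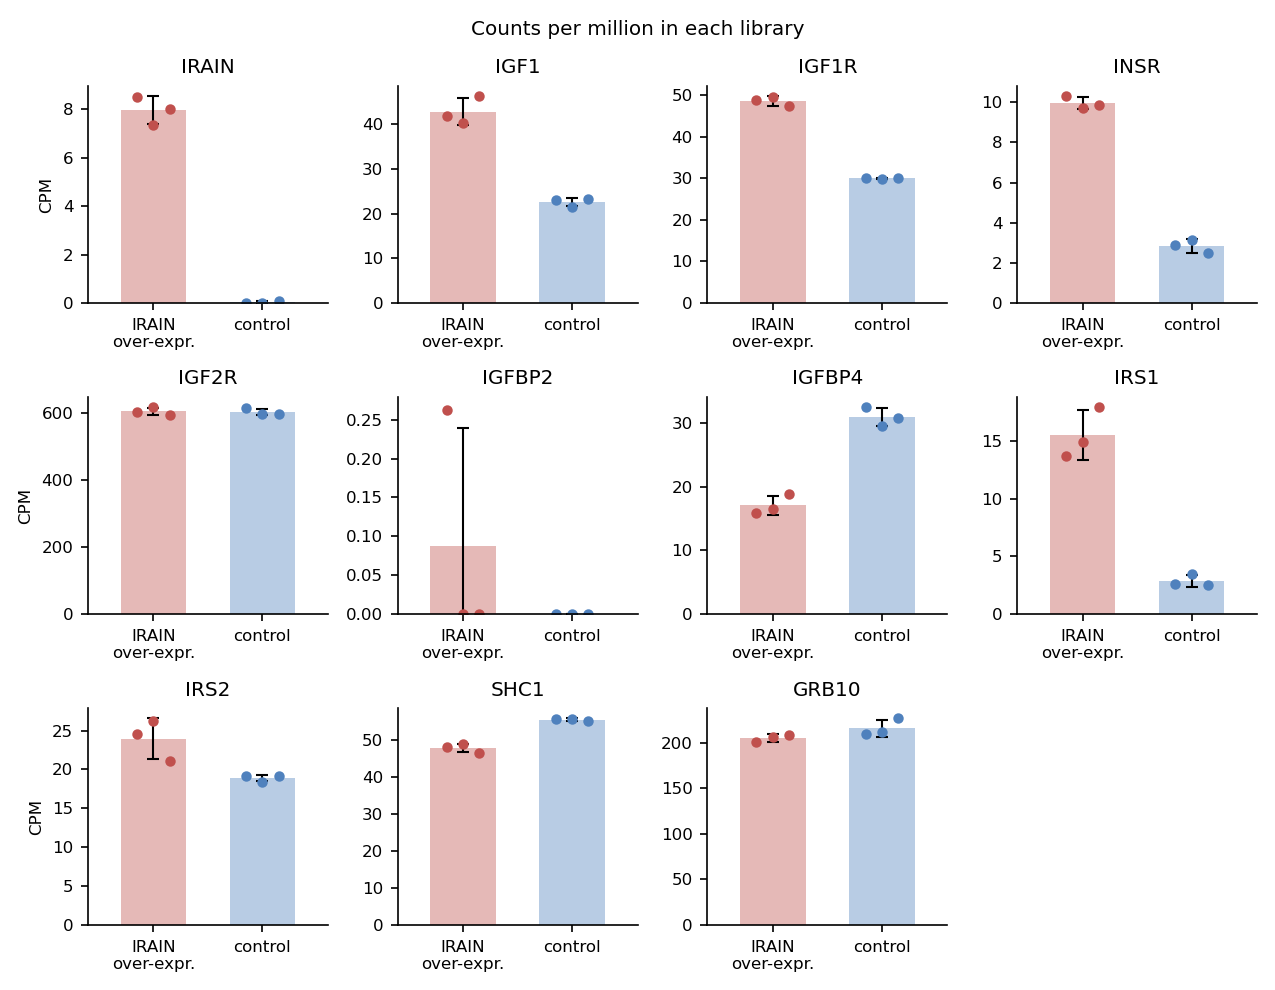
CPM of IRAIN and the 10 genes in each library, with IRAIN over-expression left and control right; points are libraries, bars group means and error bars SD (n = 3 each). The over-expression libraries lie above the controls for IGF1, IGF1R, INSR, IRS1 and IRS2 and below them for IGFBP4, SHC1 and GRB10, while IGF2R overlaps and IGFBP2 is at or near 0.

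IGFBP4, which binds the ligands and is known mostly for holding IGF1 off its receptor (ENSG00000141753.6, chr17:40443461-40457731, plus strand), was at 15.9, 16.5 and 18.8 CPM in the over-expression libraries, against 32.5, 29.6 and 30.8 CPM in the controls. Every over-expression library lay below every control, and the log2 fold change was -0.85 ± 0.081 (SE; adjusted p = 8.8e-14 by edgeR). IGFBP2 (ENSG00000115457.9, chr2:216632828-216664436, plus strand) had 3 counts in over-expression replicate 1 and 0 in the other libraries, so it was not tested, and the planned ratio of IGFBP2 to IGFBP4 could not be formed. The other binding proteins had few counts too. IGFBP1 had 0 counts in all libraries, IGFBP3 1 count in all, IGFBP5 9 over the over-expression libraries, against 2 over the controls, IGFBP6 14 against 24, and IGFBP7 5 against 12. Of the IGFBP7 reads counted by strand in over-expression replicate 2, 95 of 106 lay on the opposite strand. IGFBP4 was thus the sole one of the IGFBP1 to IGFBP7 genes with enough counts to test.

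IRS1, a docking protein through which both receptors reach PI3K (ENSG00000169047.5, chr2:226731317-226799759, minus strand), was counted 156, 190 and 236 times in the over-expression libraries, against 31, 43 and 30 times in the controls. That is 13.7, 14.9 and 17.9 CPM against 2.58, 3.47 and 2.48 CPM, with the lowest over-expression library well above the highest control. The log2 fold change was 2.44 ± 0.15 (SE; adjusted p = 1.5e-21 by edgeR), the largest of the 9 tested genes, and 0.626% of all tested genes had one of at least that size. The over-expression libraries spread more than counting alone gives, with a coefficient of variation of 14.0% against 7.18% from counting. The 161 own-strand reads of the library with strand counts come to 12.6 CPM, above the strand-ignored CPM of every control.

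IRS2, the sister docking protein (ENSG00000185950.8, chr13:109752698-109786568, minus strand), was at 24.6, 26.2 and 21.1 CPM in the over-expression libraries, against 19.1, 18.4 and 19.1 CPM in the controls. The groups do not overlap, but over-expression replicate 3 lies close to the controls, and the log2 fold change was 0.34 ± 0.085 (SE; adjusted p = 7.9e-04 by edgeR). In the library with strand counts, 70 reads lay on the opposite strand and 296 on its own, which is 23.2 CPM. Of the IRS2 exon bases, 1.41% are shared with ENSG00000275741. IRS4, another docking protein, had 0 counts in all libraries.

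SHC1, the adaptor that leads from the receptors to RAS (ENSG00000160691.18, chr1:154962298-154974395, minus strand), was at 47.9, 48.7 and 46.5 CPM in the over-expression libraries, against 55.6, 55.6 and 55.0 CPM in the controls. The groups do not overlap, and the log2 fold change was -0.22 ± 0.054 (SE; adjusted p = 7.9e-04 by edgeR). Part of the SHC1 exons is shared with PYGO2 and with an antisense gene, which leaves 84.8% of its exon bases to SHC1 alone. SHC2 moved the other way, from much lower counts. It rose, with 69, 82 and 81 counts against 28, 12 and 20 (log2 fold change 1.91 ± 0.21 SE, edgeR adjusted p = 3.0e-11). SHC4 had 16, 14 and 12 counts against 6 in each control. It had enough counts to test through the over-expression libraries alone, so no test is given for it. SHC3 had 1 count over each group.

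GRB10, the inhibitory adaptor (ENSG00000106070.18, chr7:50590063-50793462, minus strand), was at 201, 207 and 209 CPM in the over-expression libraries, against 210, 212 and 227 CPM in the controls. The over-expression libraries are all lower, by little, and the gene was not called, at a log2 fold change of -0.07 ± 0.033 (SE; adjusted p = 0.073 by edgeR). It passed without the control numbered 1 (-0.09, adjusted p = 0.045) and with the offset for gene length and GC content (-0.16, adjusted p = 4.9e-05). Its relatives GRB7, with 7.46 ± 0.55 against 6.93 ± 1 CPM (SD, n = 3 each), and GRB14, with 18 counts against 15 over the groups, gave no call.

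Levels can be set beside each other only per length, here as CPM per kilobase of exon bases that no other gene shares. In the over-expression libraries the order was IGF2R at 33.9, IGF1 at 30.0, GRB10 at 21.0, SHC1 at 13.0, IGFBP4 at 7.77, IGF1R at 3.48, IRS2 at 2.98, IRS1 at 1.55 and INSR at 0.954, and the ranges of neighbours did not overlap. In the controls it was IGF2R at 33.8, GRB10 at 22.1, IGF1 at 15.9, SHC1 at 15.1, IGFBP4 at 14.1, IRS2 at 2.35, IGF1R at 2.15, IRS1 at 0.286 and INSR at 0.272. There the ranges of IGF1 and SHC1 overlap, as do those of IRS1 and INSR. With strand ignored, IGF1 thus stood above GRB10 in the over-expression libraries and below it in the controls. So did IGF1R beside IRS2, but this order is less certain. In over-expression replicate 2, own-strand reads gave 39.8 CPM over 13941 exon bases for IGF1R and 23.2 CPM over 8138 for IRS2. Per kilobase these lie close together, and no control library was counted by strand. IRS1 and INSR, the genes with the largest rises, were the lowest of the 9 in both groups. IRAIN stood at 23.8 CPM per kilobase in the over-expression libraries.

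**Figure D4:**
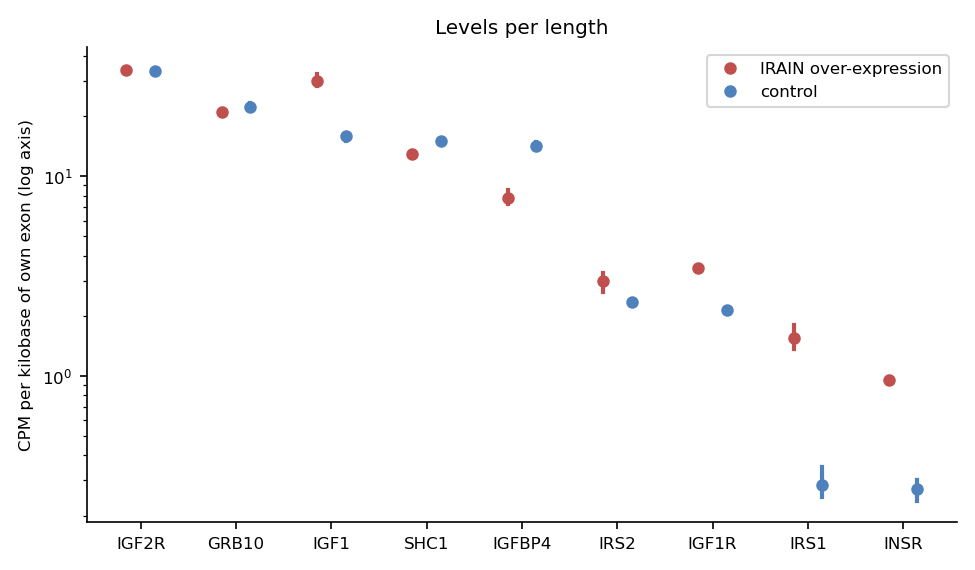
Level per kilobase of own exon in CPM on a log axis, as the mean (point) and range (line) of the 3 libraries of each group, for the 9 tested genes in the order of the controls. IRS1 and INSR, the lowest, differ most between the groups, and IGF2R, the highest, has overlapping ranges.

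Ratios within a library do not depend on how the libraries were scaled. IGF1R exceeded INSR by 3.54, 3.83 and 3.60 times in the over-expression libraries, against 7.75, 7.09 and 9.10 times in the controls, in counts per kilobase. The ranges do not overlap: the log2 ratio was 1.87 ± 0.059 in the over-expression libraries, against 2.99 ± 0.18 in the controls (SD, n = 3 each), a difference of -1.12. IRS1 stood at 0.454, 0.465 and 0.694 of IRS2 in the over-expression libraries, against 0.110, 0.154 and 0.106 in the controls. Again the ranges do not overlap, with a log2 ratio of -0.92 ± 0.34 in the over-expression libraries and of -3.04 ± 0.30 in the controls (SD, n = 3 each), a difference of 2.11. For each ratio the two-sided exact permutation test over the 6 libraries gave p = 0.1, the smallest that 3 against 3 allows.

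**Figure D5:**
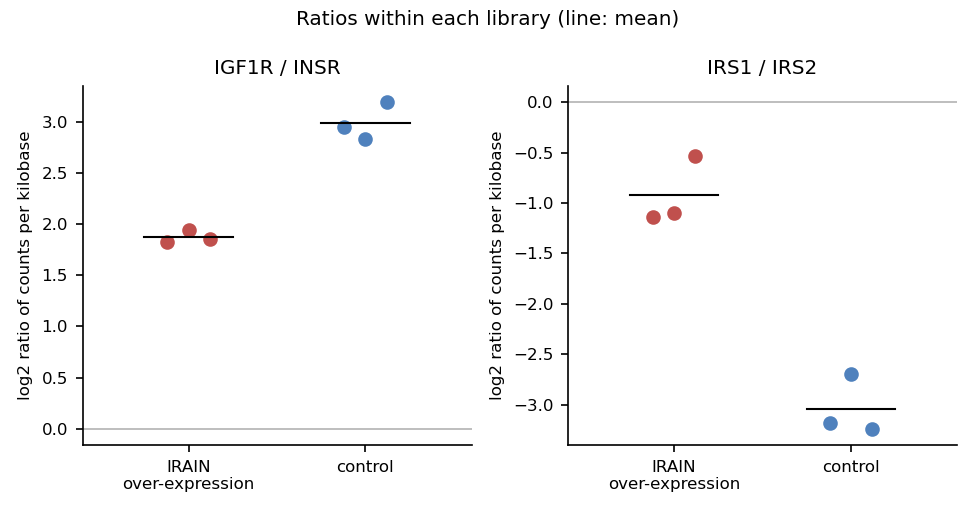
Log2 ratio of counts per kilobase in each library for IGF1R over INSR and IRS1 over IRS2, with IRAIN over-expression left and control right; points are libraries and lines means. IGF1R over INSR is lower in all over-expression libraries (mean 1.87 against 2.99) and IRS1 over IRS2 higher (-0.92 against -3.04).

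The wider axis was read from 7 lists of 77 genes by role, which hold the 10 genes too. Of these, 60 had enough counts to test, 23 rose and 13 fell, with a median log2 fold change of 0.08. That is 60.0% called, beside 39.3% of all tested genes (20.3% higher, 18.9% lower). With the offset for gene length and GC content, 22 were called higher and 20 lower, and of all tested genes 3230 higher and 4273 lower, where the main test called 3734 higher and 3483 lower. Without the 10 genes, 18 of 51 tested rose and 11 fell, 56.9% (median 0.07). The lists were chosen with earlier results known, and INSRR, SHC4 and PCSK5 among the risen genes and HTRA1 among the fallen ones had enough counts to test through 1 group alone.

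Among genes that restrain the receptors, 4 of 14 tested rose and 0 fell (median 0.08). The share called, 28.6%, is below the 39.3% of all tested genes. Of the 4, 3 are SOCS feedback inhibitors. SOCS1 stood at 49.2 ± 2.5 CPM in the over-expression libraries, against 16.1 ± 1.5 CPM in the controls (SD, n = 3 each; log2 fold change 1.61 ± 0.074 SE, edgeR adjusted p = 2.1e-27). SOCS3 was at 41.0 ± 1.4 against 16.5 ± 1.1 CPM and SOCS2 at 219 ± 5.2 against 137 ± 4.2 CPM (SD, n = 3 each), with log2 fold changes of 1.31 and 0.68. All 3 genes are known as targets of cytokine receptor signalling too.

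Of the docking and adaptor proteins, 6 of 18 tested rose and 6 fell (median -0.06), which is 66.7% called beside 39.3% of all tested genes. SHC4 is among the 6 that rose. It had enough counts to test through the over-expression libraries alone, so its call is no support for the list. GAB2, a docking protein that also binds GRB2 and BCR-ABL1, rose by 0.54 ± 0.03, and RACK1, a scaffold that binds IGF1R, rose by 0.26 ± 0.026 (log2 ± SE). NCK2, CRKL and GRB2, small adaptors of phosphorylated tyrosines, fell by 0.38, 0.14 and 0.17 on the log2 scale. Of the links to PI3K and RAS, 3 of 9 rose and 2 fell (median 0.08), or 55.6% called. PIK3R3, a regulatory subunit of PI3K, rose by 0.58 ± 0.12, the catalytic subunit gene PIK3CD by 0.29 ± 0.051 and the RAS activator SOS1 by 0.14 ± 0.037 (log2 ± SE). The phosphatase PTPN11 fell by 0.18 and PIK3CB by 0.10, and the PIK3CB call was lost without the control numbered 1 (adjusted p = 0.065).

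All 4 tested genes of the ligand list were called, 3 of them higher (median 0.12), beside 39.3% of all tested genes. Besides IGF1, the list holds the IGF2BP genes, named for an RNA they bind, IGF2 mRNA, which had 0 counts here. IGF2BP1 averaged 374 ± 3.5 CPM in the over-expression libraries, against 443 ± 2.9 CPM in the controls (SD, n = 3 each), and fell by 0.25 on the log2 scale, whereas IGF2BP2 rose by 0.12 and IGF2BP3 by 0.11. The IGF2BP2 call was lost without the control numbered 3 (adjusted p = 0.096). Of 13 binding proteins and genes that control them, 5 were tested, and IGFBP4 and HTRA1, a secreted protease known to cut binding proteins, were called lower (median -0.07), a share close to the 39.3% of all tested genes. HTRA1 had 7, 12 and 9 counts against 19, 26 and 11 in the controls, so the groups overlap. HTRA1 had enough counts to test through the controls alone, and its call was lost by DESeq2 (adjusted p = 0.097) and without over-expression replicate 1 (0.081) or 3 (0.066) or the control numbered 1 (0.053) or 2 (0.2).

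All 6 tested genes of receptor processing and transport were called, 4 higher and 2 lower (median 0.23), beside 39.3% of all tested genes. Receptor precursors of both IGF1R and INSR are cut by proprotein convertases. Of these, PCSK6 rose by 0.31 ± 0.064 and PCSK7 fell by 0.36 ± 0.055 (log2 ± SE). PCSK5, one of the 4 called higher, had 42 counts against 3 over the groups and enough counts to test through the over-expression libraries alone, so no test is given for it. Of its 12 stranded reads, 9 lay on the opposite strand. The sorting receptor SORT1 rose by 0.33 ± 0.028 (log2 ± SE). M6PR, which shares with IGF2R the task of sorting lysosomal enzymes, fell by 0.23 on the log2 scale, a call lost without over-expression replicate 1 (adjusted p = 0.063).

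The genes whose pattern over the 6 libraries was most like that of IGF1R were PTP4A3, LAPTM4B, KIF5A, RAB6B and CD24, at distances of 0.049 to 0.068 between centred log2 levels, among the named ones of 11991 tested genes whose higher group mean reached 5 CPM. Their log2 fold changes ran from 0.67 to 0.72, beside 0.69 for IGF1R. With 2 groups of tight libraries, such likeness is mostly likeness of the difference between the groups.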

How the data were processed

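The table the authors deposited holds raw gene counts of 6 libraries, in whole numbers and without regard to strand. Per the submitters' processing notes the tool was STAR and the build hg38 (GRCh38); neither the STAR version nor the annotation is stated. Columns of the over-expression libraries were matched to their titles. Those named vector were taken as the control group and are cited by the number in the column name. Identifiers were matched without version to GENCODE release 29 (58275 of 58440) and named from a table of symbols. Exon lengths, and the exon bases that no other gene shares, come from that annotation.

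The counts were tested with edgeR 4.0.16 in R 4.3.3 (glmQLFit, glmQLFTest, two-sided, TMM factors, default filterByExpr, group as the sole term, Benjamini-Hochberg adjustment over 18380 genes). CPM are counts over TMM-scaled library sizes. An SE is the size of the log2 fold change over the square root of F. The edgeR step was tested on simulated data. Alternatives were RLE factors, scaling without abundant genes, DESeq2 1.42.0, limma-voom (limma 3.58.1), 2 filters, an offset for GC content and length (mgcv 1.9.3), a test against 1.5-fold, and leaving out each library. Intervals are exact binomial at 95%. They and the floor of 3 counts cover counting error only, as PCR copies were not told apart by molecular identifiers. Strand counts, deposited for 1 library, describe it alone, and the orientation with most reads was taken as the gene's own strand. CPM of own-strand reads were taken over that library's scaled size with strand ignored.

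The members, lists and tests were chosen with earlier results of these data known. Named genes are IRAIN, the 10 members, the listed paralogues, in each list the called genes of smallest p (at most 3 in each direction), genes overlapping IGF1R, and the 5 nearest to IGF1R by Euclidean distance of centred log2 CPM (0.5 added to each count). PYGO2, HELLPAR, ENSG00000275741, MALAT1, KRT8, CDH1, PIK3CA, GAB1 and the genes of the closing section were named after their values were seen.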

Additional observations from a re-analysis of the deposited data

Results flagged for a closer look

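The library counted by strand, which no comparison between the groups uses, holds reads that the deposited strand-ignored counts do not show. For IGF1, 2071 own-strand reads are absent from the strand-ignored count. The share of stranded reads on the opposite strand had an interval wholly above the 15.1% of the whole library for IGF1R (19.7%, exact 95% interval 16.7% to 23.1%), IRS2 (19.1%, 15.2% to 23.5%) and IGF1 (16.6%, 15.3% to 17.9%). For the other tested members it ran from 10.2% in IGF2R to 15.3% in IRS1. In the wider lists it was 19.5% in SOCS1, 20.1% in PIK3CA and 21.7% in PCSK6, but 4.08% in GAB1. In PIK3CA (1072 own-strand and 270 opposite) and PCSK6 (469 and 130), stranded reads exceeded the strand-ignored counts of 1049 and 509. Some of their reads were thus ambiguous without strand. A high share, as in SOCS1, is not particular to the members. No control library was counted by strand, so a difference between the groups in these shares was not tested. Other genes overlap 2 of these members: HELLPAR covers 82.4% of the IGF1 exon bases, on the other strand, and ENSG00000275741 covers 1.41% of those of IRS2. Reads of HELLPAR over IGF1 would count as opposite to IGF1. How many of the opposite reads belong to the overlapping genes was not tested.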

How the results depend on the processing

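Across the 8 settings that keep all libraries and the 6 that leave one out, IGF1, INSR, IRS1 and IGFBP4 kept their direction and their call. In the test against a 1.5-fold change, IGF1R (0.69, adjusted p = 0.23), IRS2 (0.34) and SHC1 (-0.22) did not pass, and the calls came to 4 of the members, 9 of the wider lists and 689 of all genes, against 7, 36 and 7217 in the main test. IGF2R, near 0 in the main test, took the sign of -0.13 with the GC and length offset and ranged from -0.01 to 0.02 with a library left out. GRB10 was called at -0.16 with that offset and ranged from -0.09 to -0.04 with a library left out. The cause of these moves was not tested; the offset moved the median of all genes to -0.03. DESeq2 called 5265 genes. Leaving out a library gave 6334 to 6749 called genes, 7 to 8 called members and 33 to 36 called genes of the wider lists. The difference in the receptor ratio ranged from -1.20 to -1.02 and that in the docking protein ratio from 1.92 to 2.29. The ratio of IGFBP2 to IGFBP4 was not run, since IGFBP2 had 0 counts in 5 libraries. No paired analysis was possible because the control columns are named vector, and no label ties their numbers to samples.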

Other observations

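In the wider lists, the strand counts differ from the strand-ignored ones for some genes. Reads of IGFBP7, a low-affinity relative of the binding proteins, lay on the opposite strand in 89.6% of cases (95 of 106 stranded reads), with 11 reads on its own strand and 3 with strand ignored. Reads of IGFALS, which carries the ligands in blood with a binding protein, did so in 79.5% of cases (35 of 44 stranded reads), and those of PAPPA, the protease known to cut IGFBP4, in 51.8% (44 of 85). Neither IGFALS nor PAPPA passed the test between the groups (log2 fold changes -0.07 ± 0.23 and 0.26 ± 0.17 SE, edgeR adjusted p = 0.85 and 0.25). Several other genes had more reads on their own strand than with strand ignored. Of these, PDPK1, the kinase that activates AKT, had 793 against 552, IGF2BP3 2628 against 2040, MDM2 2584 against 2132, and PCSK7 683 against 544. M6PR had 668 reads on its own strand, 106 more than with strand ignored.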
